A study of Mus musculus with 10 samples.

Results

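The replication-dependent histone genes of mouse liver were followed 6 h after activation of the death receptor CD95 (Fas). Members were all genes whose older mouse symbol begins with Hist1h, Hist2h, Hist3h or Hist4h, matched by Ensembl gene identifier to the GENCODE M21 annotation (genome build GRCm38). The annotation lists 70 such genes, and 62 of them were among the 38922 gene rows of the data. The other 8, namely Hist1h3h, Hist1h2bm, Hist1h3i, Hist1h3g, Hist1h2bh, Hist1h3f, Hist1h3d and Hist2h2bb, were not analysed here. Of the 62 genes, 49 lie in the Hist1 cluster on chromosome 13, 9 in the Hist2 cluster on chromosome 3, 3 in the Hist3 cluster on chromosome 11, and 1, Hist4h4, stands alone on chromosome 6. They comprise 6 genes of the linker histone H1, 20 of H2A, 16 of H2B, 7 of H3 and 13 of H4, pseudogenes included.

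Histones H2A, H2B, H3 and H4 form the protein core around which DNA is wrapped, and H1 binds the linker DNA between these cores. Dividing cells need new histones when they copy their DNA, so most of these genes are transcribed in S phase. Their mRNAs are unusual because they usually end in a short stem-loop, bound by the protein Slbp, instead of a poly(A) tail. Some members can also be read through to a downstream poly(A) signal, and polyadenylated histone mRNAs are known from cells that no longer divide.

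RNA sequencing was available for 10 livers of male wild-type C57BL/6N mice, 6 weeks old, 1 mouse per library. The 5 control mice received saline, and the 5 treated mice received 0.5 μg of CD95-activating antibody (CD95-Ab) per g of body weight into the peritoneal cavity, a model of fulminant liver failure. Livers were taken 6 h later, and libraries were made from 500 ng of total RNA with TruSeq RNA reagents, the enrichment step not being given in the sources used here. The libraries were of whole liver, so that fewer cells of a type and less RNA per cell cannot be told apart.

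The libraries held 25965699 to 62097636 counts in saline mice and 27480796 to 44962196 in CD95-Ab mice, so that 3 counts in one library stood for 0.0556 to 0.121 counts per 1000000 counts (CPM, over normalized totals). All 8 hepatocyte markers were found, with a summed level of 107487 to 131972 CPM in saline mice and 51789 to 86804 CPM in CD95-Ab mice, 4 being lower by the test used below and none higher. All 6 tested neutrophil markers were higher, their sum moving from between 4.08 and 10.6 CPM to between 109 and 438 CPM. Higher calls were also made for 7 of 9 erythroid markers (2 were lower), 7 of 9 lymphocyte markers, 5 of 6 endothelial markers and 2 of 8 macrophage markers, and no listed cell type marker was at 0 in every mouse.

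The stem-loops are shown first because they mark an mRNA as replication-dependent and because they differ between the H4 genes and the other classes. A loop of 16 bases that starts with GG, ends with CC and has T at bases 6, 7 and 9 and A at base 11 was found in the longest annotated transcript of 40 of the 62 genes, against 2.69% of 141767 annotated transcripts of all genes. Each is printed 5′ to 3′ in the sense of the mRNA, with the loop in capitals, up to 5 flanking bases on each side in lower case, and the GRCm38 position of the loop.
Hist1h4n (chr13:21831798-21831813, minus strand): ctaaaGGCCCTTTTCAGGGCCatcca
Hist1h4c (chr13:23698089-23698104, minus strand): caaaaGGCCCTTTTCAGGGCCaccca
Hist1h4i (chr13:22040966-22040981, minus strand): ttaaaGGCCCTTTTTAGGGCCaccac
Hist4h4 (chr6:136803998-136804013, minus strand): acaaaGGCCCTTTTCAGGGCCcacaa
Hist1h4b (chr13:23757366-23757381, plus strand): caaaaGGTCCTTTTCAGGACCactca
Hist1h1e (chr13:23621782-23621797, minus strand): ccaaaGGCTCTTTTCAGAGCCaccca
Hist1h1c (chr13:23739512-23739527, plus strand): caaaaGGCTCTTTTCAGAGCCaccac
Hist2h2aa2 (chr3:96239784-96239799, minus strand): aaaaaGGCTCTTTTCAGAGCCaccca
Hist3h2a (chr11:58955172-58955187, plus strand): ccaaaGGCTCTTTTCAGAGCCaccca
All 12 H4 genes with a loop had a stem beginning GGCCC (10 genes) or GGTCC (2 genes). All 28 loops in the other classes began GGCTC. The mRNAs annotated for Hist1h2bc and Hist2h2be held no such loop. A transcript annotated to end before the loop cannot show it, and some without a match are short. Examples are Hist1h4k with 312 bases and Hist1h2bl with 381. A missing match therefore does not mean that the gene lacks a loop.

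The annotated transcripts differed in how far they run past the loop, from 3 to 4884 bases. A transcript that ends directly after the loop would match the cleaved, tailless mRNA, and a longer one reads on into downstream sequence. Annotated ends do not show which form was present in these livers. The distance past the loop was 31 bases for Hist1h4n, 28 for Hist1h4b and 35 for Hist2h2aa2. It was 840 bases for Hist1h1c, 1153 for Hist1h1e, 1643 for Hist3h2a and 2445 for Hist4h4. A poly(A) signal, AATAAA or its variant ATTAAA, stood in the last 40 bases of the transcripts of 16 of the 62 genes, among them Hist1h1c, Hist3h2a, Hist2h2be, Hist4h4, Hist2h4, Hist1h4h and Hist1h4i.

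The promoters are shown because they also set the H4 genes apart. RefSeq windows on GRCm38.p6, from 250 bases before to 50 after the transcription start, were matched for 62 of the 70 annotated genes. On either strand the letters CCAAT, the core of a box bound by NF-Y, were found in 53 of these 62 windows (85.5%), against 37.4% of 32851 promoters of all genes. All 50 windows of the H1, H2A, H2B and H3 genes held them, but only 3 of 12 H4 windows (25.0%) did. The letters TATAAA, found in the box bound by the TBP protein, were present in 56.5% of the histone windows and 13.6% of all promoters. Of the 12 H4 windows, 8 held them. ATTTGCAT, the octamer bound by Oct1, was present in 7 of 18 H2A and 6 of 16 H2B windows, in no H1, H3 or H4 window, and in 1.7% of all promoters. The motifs were searched for separately and may overlap, and windows of divergent H2A and H2B neighbours can share bases. Their position in the window was not considered, so a match need not be a bound site. The windows of the H4 gene with the largest change below and of the only H1 gene with a call are printed 5′ to 3′, with matches to the first pair of motifs in capitals.
Hist1h4n (chr13:21832148-21832447, minus strand): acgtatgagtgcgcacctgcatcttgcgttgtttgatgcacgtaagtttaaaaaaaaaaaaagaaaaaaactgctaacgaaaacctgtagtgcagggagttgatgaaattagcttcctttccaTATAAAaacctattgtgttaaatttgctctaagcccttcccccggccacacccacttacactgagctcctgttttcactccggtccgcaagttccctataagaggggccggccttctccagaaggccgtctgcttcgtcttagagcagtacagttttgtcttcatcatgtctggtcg
Hist1h1e (chr13:23622509-23622808, minus strand): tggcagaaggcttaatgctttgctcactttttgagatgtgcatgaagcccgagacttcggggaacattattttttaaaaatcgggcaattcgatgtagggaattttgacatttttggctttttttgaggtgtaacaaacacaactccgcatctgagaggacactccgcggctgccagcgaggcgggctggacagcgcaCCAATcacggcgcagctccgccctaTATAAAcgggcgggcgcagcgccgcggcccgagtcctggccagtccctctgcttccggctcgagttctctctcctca

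As a whole, the level of the family overlapped between the groups, while the share of the H4 genes within it was larger in every mouse injected with CD95-Ab. Summed over the 62 genes, the level was 92.6, 100.5, 172, 194 and 166 CPM in saline mice 1 to 5 and 82.7, 134, 168, 209 and 131 CPM in CD95-Ab mice 1 to 5. The means were 145 ± 45.5 and 145 ± 47.1 CPM (SD, n = 5 per group), and the groups overlapped over nearly their whole range. The 13 H4 genes summed to 1.34, 1.75, 2.08, 1.96 and 1.72 CPM in saline mice and to 6.93, 19.4, 13.9, 23.8 and 10.4 CPM in CD95-Ab mice. All CD95-Ab mice were thus above all saline mice for H4. The share of H4 in the histone counts was 1.01% to 1.74% in saline mice and 7.89% to 14.4% in CD95-Ab mice.

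**Figure D1:**
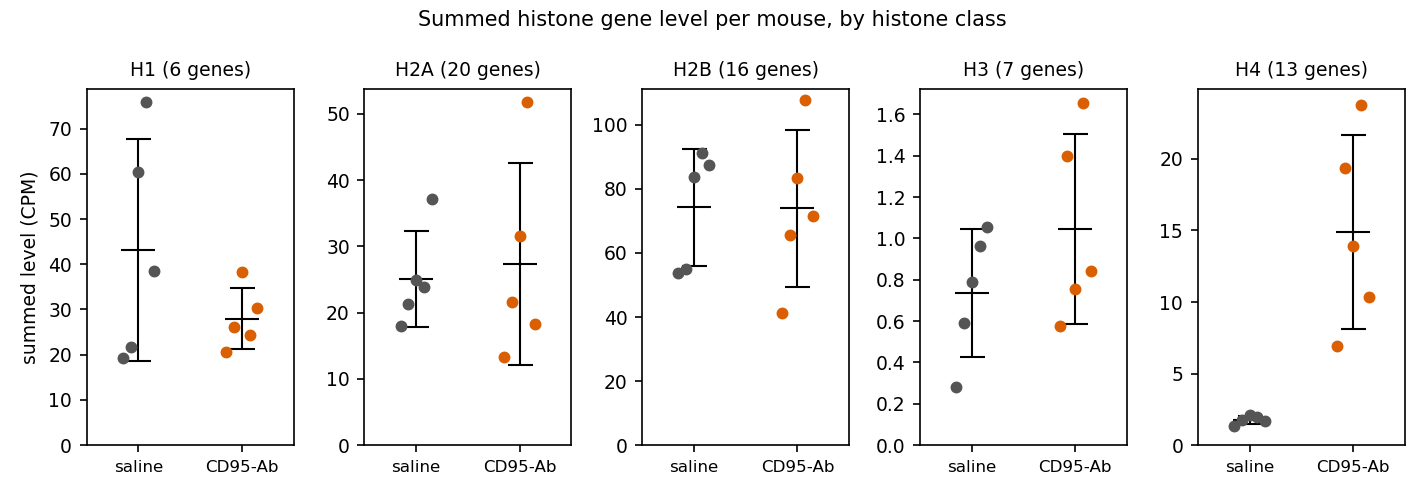
Summed level (CPM) of the genes of each histone class in each of the 5 saline (grey) and 5 CD95-Ab (orange) mice, with the mean and SD (bars) and axes that start at 0 but differ in scale between panels. The H4 sum was at most 2.08 CPM in saline mice and at least 6.93 CPM in CD95-Ab mice, while the sums of the other 4 classes overlapped between the groups.

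The other classes overlapped between the groups. The H1 sum was 43.2 ± 24.6 CPM in saline and 27.9 ± 6.72 CPM in CD95-Ab mice, and the H2A sum 25.0 ± 7.28 and 27.3 ± 15.2 CPM. The H2B sum was 74.2 ± 18.3 and 73.9 ± 24.4 CPM, and the H3 sum 0.736 ± 0.309 and 1.05 ± 0.459 CPM. Hist1h2bc, Hist1h1c and Hist2h2aa2 alone made up 91.2% to 94.9% of the histone counts in saline mice and 76.5% to 86.2% in CD95-Ab mice. The remaining 59 genes together gave 5.71 to 11.9 CPM in saline mice and 12.3 to 39.5 CPM in CD95-Ab mice, so the groups did not overlap. Without the H4 genes as well, the remaining 46 genes gave 4.37 to 10.2 and 5.39 to 15.7 CPM, and the groups overlapped.

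Compared per transcript length, the same 3 genes stood first in both groups. Hist1h2bc had a level of 108 ± 19.6 FPKM (fragments per kilobase of transcript, scaled to the library) in saline and 100.1 ± 23.4 FPKM in CD95-Ab mice. Hist2h2aa2 followed with 41.1 ± 5.85 and 42.0 ± 18.5 FPKM, and Hist1h1c with 28.7 ± 15.7 and 15.8 ± 3.50 FPKM. In saline mice the ranges of Hist2h2aa2 (33.9 to 49.9 FPKM) and Hist1h1c (14.4 to 49.2 FPKM) overlapped. Hist1h4n stood at rank 29 by its mean FPKM in saline mice, at 0.05 ± 0.11 FPKM, and at rank 4 in CD95-Ab mice, at 9.33 ± 4.09 FPKM.

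For each gene the groups were compared with edgeR's quasi-likelihood test fitted over all genes. A gene was called at an adjusted p (FDR, Benjamini-Hochberg over all tested genes) of 0.05 or less. Of the 62 histone genes, 18 passed the filter on low counts and were tested, 44 were not, and 7 of those had no count in any mouse. Among the 18, 9 were higher after CD95-Ab, where 25.4% of all 13719 tested genes were, and 2 were lower, where 22.0% of all tested genes were. The median log2 fold change was 1.33 over these 18 and 0.0064 over all tested genes. These counts do not describe the family: 6 of the 9 higher genes reached 10 counts in no saline mouse and passed the filter through the CD95-Ab mice, and 100% of the 125 tested genes of that kind were called higher. Of the other 12, which had 10 counts in at least 1 saline mouse, 3 were higher, where 24.7% of all such genes were, 2 were lower and 7 were not called. All 3 of those higher genes encode H4.

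**Figure D2:**
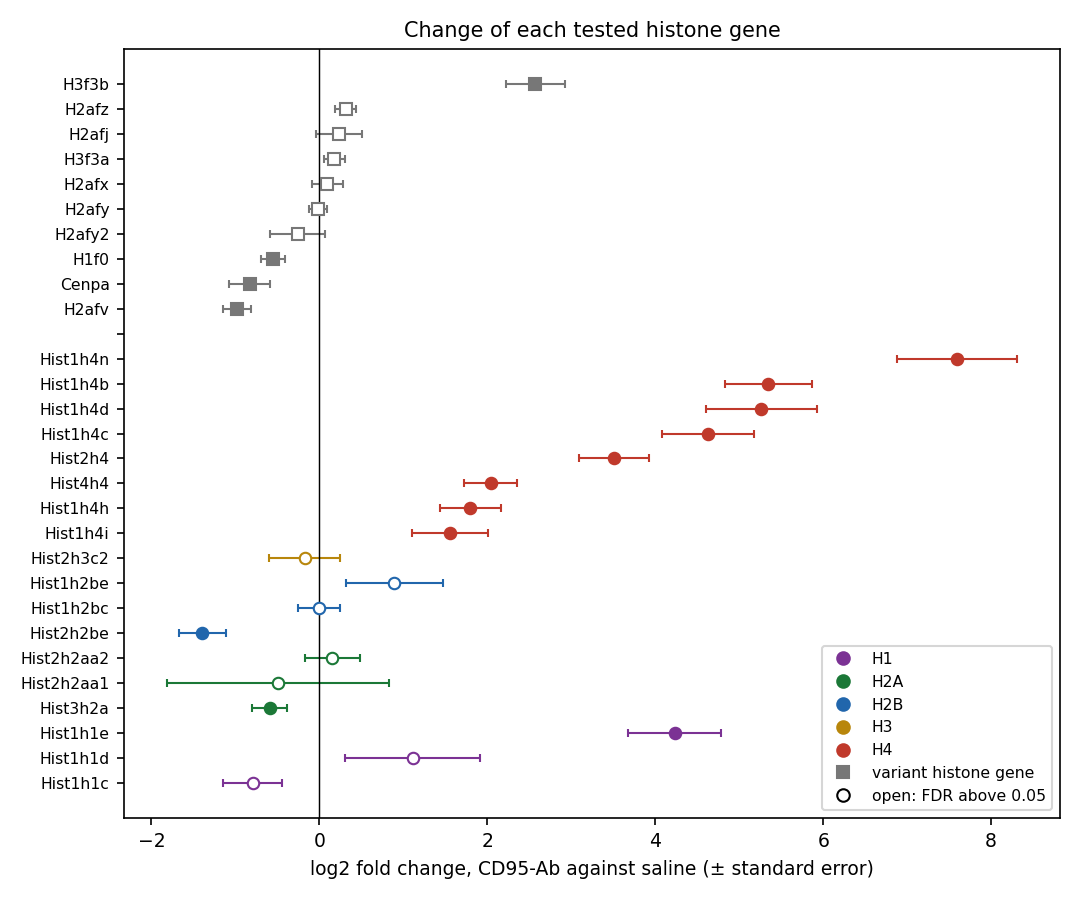
Log2 fold change of CD95-Ab against saline mice (horizontal axis) with its standard error for the 18 tested replication-dependent histone genes (circles, coloured by class) and 10 tested variant histone genes (grey squares), open symbols having an FDR above 0.05. The 8 tested H4 genes lie between 1.56 and 7.60, while of the other classes Hist1h1e alone lies past 2 and Hist2h2be (-1.40) and Hist3h2a (-0.59) are the filled circles below 0.

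Of the linker histone genes 3 were tested, and Hist1h1e alone was called. Hist1h1c encodes the H1 subtype H1.2, a major somatic linker histone, and is a single-exon gene at chr13:23738808-23740367. It measured 19.1, 21.7, 60.04, 74.0 and 38.1 CPM in saline mice 1 to 5 and 19.3, 20.8, 33.4, 20.7 and 28.3 CPM in CD95-Ab mice 1 to 5. Saline mice 3, 4 and 5 stood above all CD95-Ab mice, saline mouse 2 stood among them and saline mouse 1 just below, and the log2 fold change of -0.79 ± 0.35 (SE) was not called (FDR = 0.0795). The call depended on single mice and on the method: FDR was 0.0253 without saline mouse 1, 0.0336 without saline mouse 2, and 0.0468 with DESeq2.

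Hist1h1e, which encodes the linker histone H1.4, was higher in every CD95-Ab mouse. Its level was 0.0705, 0.0889, 0.141, 0.231 and 0.0371 CPM in saline mice and 0.770, 3.12, 3.06, 2.18 and 0.996 CPM in CD95-Ab mice. The lowest treated mouse was above the highest control, and the log2 fold change was 4.23 ± 0.55 (FDR = 7.87e-05). Hist1h1e (chr13:23620629-23622558) overlaps Hist1h2be on the same strand, so reads of the shared stretch were divided between them by the counting. It reached 10 counts in no saline mouse.

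Hist1h1d, the gene of H1.3, did not pass the test. It measured 0.0470, 0.0296, 0.225, 1.42 and 0.315 CPM in saline mice and 0.192, 1.34, 1.11, 1.05 and 0.487 CPM in CD95-Ab mice. The groups overlapped, saline mouse 4 having the highest value of all, and the log2 fold change was 1.11 ± 0.80 (FDR = 0.277). Without that mouse it was 2.30 (FDR = 0.0197).

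No H2A gene was higher by the test. Hist2h2aa2, one of 2 nearly identical H2A genes in the Hist2 cluster (chr3:96239749-96240276), measured 15.5, 17.5, 21.3, 21.3 and 29.9 CPM in saline mice and 11.1, 18.1, 28.8, 43.7 and 16.1 CPM in CD95-Ab mice. The treated mice spread to both sides of the controls (log2 fold change 0.15 ± 0.32, FDR = 0.719). Its near-copy Hist2h2aa1 was high in single mice of both groups, at 5.11 CPM in saline mouse 5 and 4.64 CPM in CD95-Ab mouse 4 (log2 fold change -0.50 ± 1.32, FDR = 0.78). Every 100-base window of the Hist2h2aa2 transcript recurs in another histone transcript, so the split between the copies is uncertain. Summed, the pair gave 22.6 ± 7.52 CPM in saline and 24.7 ± 14.7 CPM in CD95-Ab mice (log2 fold change 0.12, FDR = 0.796).

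Hist3h2a, an H2A gene of the Hist3 cluster (chr11:58954685-58956830) that overlaps Trim17 on the same strand, was lower. It measured 2.21, 3.02, 2.03, 1.69 and 1.80 CPM in saline mice and 1.38, 1.43, 1.35, 1.73 and 1.24 CPM in CD95-Ab mice. CD95-Ab mouse 4 stood just above saline mouse 4, and the other treated mice were below all controls (log2 fold change -0.59 ± 0.21, FDR = 0.0322). The call was lost on leaving out any one of CD95-Ab mice 1, 2, 3 and 5 or saline mice 1 and 2, with FDR rising to at most 0.087.

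The most abundant of these genes in the liver was not called. Hist1h2bc, an H2B gene at chr13:23684199-23692908, measured 52.2, 52.4, 81.7, 87.7 and 86.1 CPM in saline mice and 39.96, 63.6, 81.6, 106 and 68.6 CPM in CD95-Ab mice. The lowest and the highest values were both in treated mice, and the log2 fold change was -0.0029 ± 0.25 (FDR = 0.994). It alone provided 45.2% to 56.4% of the histone counts in saline mice and 47.4% to 52.3% in CD95-Ab mice.

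Hist2h2be, an H2B gene at chr3:96221119-96223738, was the other lower member. It measured 1.36, 1.90, 1.52, 2.23 and 1.06 CPM in saline mice and 0.642, 0.414, 0.637, 0.444 and 0.863 CPM in CD95-Ab mice. All treated mice were below all controls, as for 14.7% of all tested genes, and the log2 fold change was -1.40 ± 0.28 (FDR = 0.0017). Hist1h2be, in the same class, was not called (0.400 ± 0.386 and 0.698 ± 0.266 CPM, log2 fold change 0.89 ± 0.57, FDR = 0.22), and without saline mouse 4 its FDR was 0.0247.

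H3 genes were scarce in both groups, and only Hist2h3c2 (chr3:96238108-96239127) was tested. It measured 0.188, 0.326, 0.620, 0.808 and 0.278 CPM in saline mice and 0.321, 0.382, 0.239, 0.323 and 0.598 CPM in CD95-Ab mice. The groups overlapped, and the log2 fold change was -0.17 ± 0.42 (FDR = 0.76). Of its 100-base windows 61.6% recur in other histone transcripts, and its neighbour Hist2h3c1, which was not tested, had 39 counts in saline mouse 5, at most 7 in the other saline mice and 0 in all CD95-Ab mice.

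The H4 genes that could be tested were higher. Histone H4 is encoded by many genes whose proteins are the same or nearly the same, and 8 of the 13 genes were tested. Of these, 5 passed the filter through the CD95-Ab mice only, so that their calls were fixed by it. The 3 with 10 counts in at least 1 saline mouse come first, and in each of them every CD95-Ab mouse was above every saline mouse (18.6% of all tested genes were separated in this way).

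Hist4h4 (chr6:136801553-136804415) lies apart from the clusters. It measured 0.400, 0.356, 0.338, 0.500 and 0.630 CPM in saline mice and 0.962, 2.36, 1.35, 2.66 and 1.93 CPM in CD95-Ab mice. The lowest treated mouse was above the highest control, and the log2 fold change was 2.04 ± 0.32 (FDR = 2.95e-04).

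Hist1h4h (chr13:23531050-23531519) measured 0.306, 0.415, 0.648, 0.423 and 0.537 CPM in saline mice and 0.770, 1.66, 1.47, 3.07 and 1.24 CPM in CD95-Ab mice. The gap between the groups was narrow, with saline mouse 3 just below CD95-Ab mouse 1 (log2 fold change 1.80 ± 0.36, FDR = 0.0017). Hist1h4i (chr13:22040636-22041362) measured 0.259, 0.533, 0.845, 0.808 and 0.185 CPM in saline mice and 0.866, 2.13, 1.19, 2.34 and 1.04 CPM in CD95-Ab mice. Its groups were separated by less still, between saline mouse 3 and CD95-Ab mouse 1 (log2 fold change 1.56 ± 0.45, FDR = 0.0136).

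The remaining 5 tested H4 genes were close to the detection limit in saline mice. Hist1h4n (ENSMUSG00000069305, chr13:21831767-21832196), whose stem-loop and promoter are printed above, had 3, 0, 0, 0 and 0 counts in saline mice and 50, 139, 97, 162 and 99 counts in CD95-Ab mice. Its level after CD95-Ab was 1.60, 4.42, 3.86, 6.54 and 2.19 CPM. The ratio of the summed counts, scaled to the library totals, was 222 with a 95% interval of 75.5 to 1078, which covers counting error only. The fitted log2 fold change of 7.60 ± 0.71 (FDR = 7.55e-06) rests on those 3 control counts, and without saline mouse 1, which leaves no control count, the fit gave 9.98, a value that depends on the prior count. As 80.7% of its 100-base windows recur in other histone transcripts, part of its counts may belong to copies such as Hist1h4m, and with the pair summed the log2 fold change was 6.08 (FDR = 3.17e-06).

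Hist1h4d measured 0 to 0.111 CPM in saline mice and 0.738, 2.71, 1.43, 2.62 and 0.885 CPM in CD95-Ab mice (log2 fold change 5.26 ± 0.66, FDR = 6.34e-05), and without saline mouse 5 the log2 fold change was 6.51. None of its 100-base windows recurs exactly in another histone transcript. Other genes and near matches were not compared. Hist2h4, in the Hist2 cluster, likewise shared no window and measured 0.0371 to 0.148 CPM in saline mice and 0.481, 1.15, 0.597, 1.05 and 0.863 CPM in CD95-Ab mice (log2 fold change 3.51 ± 0.42, FDR = 4.39e-05).

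Hist1h4c measured 0.0385 to 0.119 CPM in saline mice and 0.481, 2.29, 1.91, 2.70 and 0.885 CPM in CD95-Ab mice (log2 fold change 4.63 ± 0.55, FDR = 4.40e-05). Hist1h4b measured 0 to 0.0470 CPM in saline mice and 0.674, 1.24, 0.836, 1.49 and 0.708 CPM in CD95-Ab mice (log2 fold change 5.35 ± 0.52, FDR = 9.26e-06). Hist1h4b overlaps 4930558J22Rik on the opposite strand, and the pair cannot be told apart where counting does not use the strand. In each of these 5 genes the treated mice were far above the controls, and CD95-Ab mouse 1 was the lowest treated mouse.

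**Figure D3:**
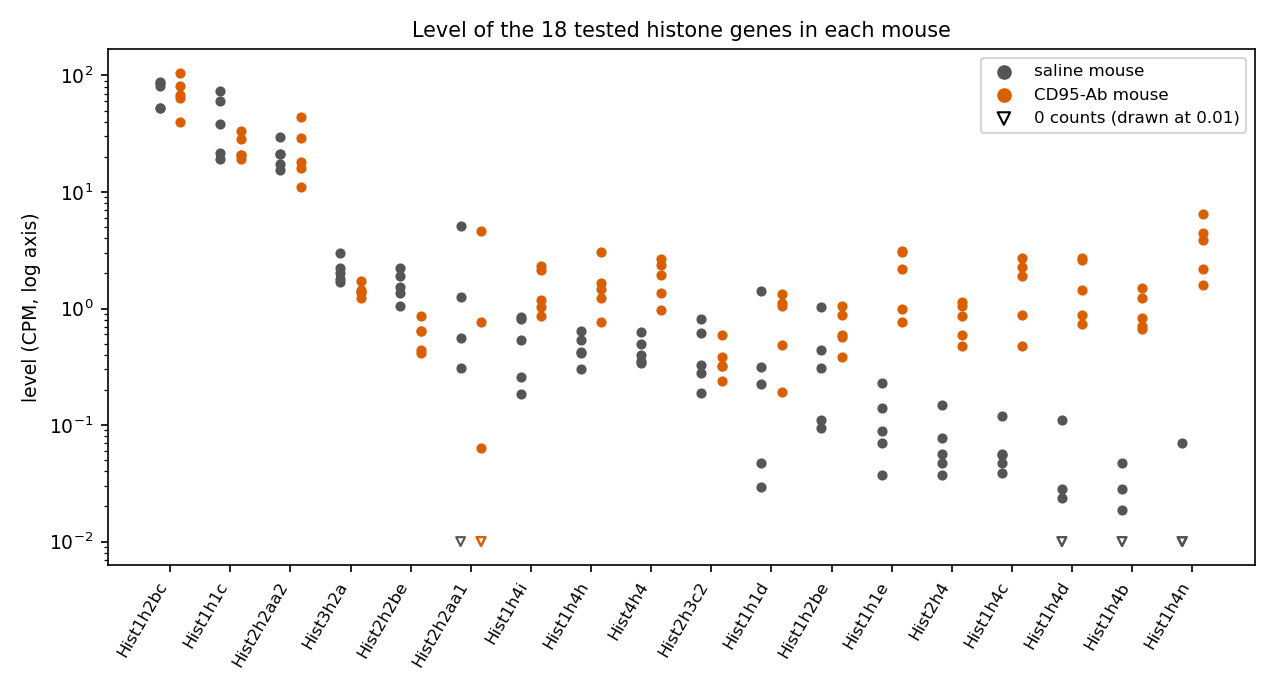
Level (CPM, log axis) of the 18 tested histone genes in each saline (grey) and CD95-Ab (orange) mouse, ordered by their mean in saline mice, with open triangles at 0.01 for mice with 0 counts. The 3 abundant genes on the left overlap between the groups, whereas the genes on the right, from Hist1h1e to Hist1h4n, were at most 0.231 CPM in saline mice and at least 0.481 CPM in CD95-Ab mice.

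The 44 untested genes held few counts, 200 over the 5 saline mice and 632 over the 5 CD95-Ab mice, with at most 39 in any mouse. In 34 of the 44 the mean level was higher in CD95-Ab mice, while 7 had no count in any mouse. Some of the 34 rest on a single count, such as Hist1h2bl with 0 counts over the saline and 1 over the CD95-Ab mice. The share among other genes with so few counts was not examined, so the 34 are not a result about the family. The H4 gene Hist1h4j had 4, 3, 1, 0 and 2 counts in saline mice and 7, 21, 24, 13 and 12 in CD95-Ab mice, a scaled ratio of 9.36 (95% interval of counting error 4.83 to 20.3). Hist1h1t, a linker histone gene known from the testis, had 3 counts in saline mice together and 40 in CD95-Ab mice, a ratio of 16.2 (5.16 to 81.9). The H2A gene Hist2h2ac had 0 counts in all saline mice and 2, 15, 13, 14 and 10 in CD95-Ab mice, at least 21.9-fold higher when 3 counts over the group are taken as the limit. In all of these genes every treated mouse was above every control, as for 18.6% of all tested genes. The share among untested genes with 10 counts in a CD95-Ab mouse was not examined.

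Of the other untested members with at least 10 counts in a mouse, Hist2h3c1 went the other way, as given above, and 5 had more counts after CD95-Ab. With Hist1h4j, Hist1h1t and Hist2h2ac these make 8 members, all of which reached 10 counts in CD95-Ab mice only. Being named by that rule favoured their direction, and the intervals do not allow for it, so they are not a result about the family. The ratio was 7.30 (3.42 to 17.9) for the H3 gene Hist1h3e, 7.498 (3.14 to 21.7) for the H3 gene Hist1h3a, 11.3 (3.50 to 58.3) for the linker histone gene Hist1h1a and 5.40 (2.58 to 12.7) for the H2B gene Hist1h2bq. The H2A gene Hist1h2ac measured 0.153 ± 0.0704 CPM in saline and 0.404 ± 0.0751 CPM in CD95-Ab mice. Treated and control mice did not overlap for these 5 genes, except for Hist1h2bq, and here too the share among similarly picked genes was not examined. With no filter on low counts, 55 members entered the edgeR test, 20 were higher (16.4% of 23118 genes were) and 3 were lower, and 12 of the 13 H4 genes were among the higher.

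The variant histone genes, most of which are also expressed outside S phase and have mRNAs with poly(A) tails, were set beside them. Of 10 tested, 1 was higher, where 25.4% of all tested genes were, and 3 were lower, where 22.0% of all tested genes were. The other 6 were not called, and the median log2 fold change of the 10 was 0.04. H3f3b, one of 2 genes of the replacement histone H3.3, measured 125, 133, 169, 304 and 370 CPM in saline mice and 885, 1346, 1900, 1487 and 920 CPM in CD95-Ab mice. All treated mice were above all controls (log2 fold change 2.57 ± 0.35, FDR = 1.18e-04). H3f3a, the other H3.3 gene, was not called (109 ± 3.20 and 124 ± 18.1 CPM, log2 fold change 0.18 ± 0.12, FDR = 0.24). H2afv, an H2A.Z gene, was lower at 19.1 ± 1.001 against 9.72 ± 2.49 CPM (log2 fold change -0.98 ± 0.16, FDR = 4.90e-04).

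The centromeric H3 variant gene Cenpa was lower (log2 fold change -0.83 ± 0.24, FDR = 0.0133), as was the linker histone gene H1f0 (82.8 ± 8.72 and 56.6 ± 11.3 CPM, log2 fold change -0.55 ± 0.14, FDR = 0.00798). The other H2A.Z gene, H2afz, had 49.9 ± 3.31 and 61.9 ± 9.20 CPM and just missed the threshold (log2 fold change 0.31 ± 0.12, FDR = 0.0502). In saline liver, H3f3b alone thus measured between 125 and 370 CPM, where the 7 replication-dependent H3 genes together measured 0.282 to 1.06 CPM.

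Genes that transcribe, process and degrade replication-dependent histone mRNAs were examined next. Of 22 tested, 3 were higher (13.6%, against 25.4% of all tested genes), 5 were lower (22.7%, against 22.0%) and 14 were not called, and the median log2 fold change was -0.16. Slbp, which binds the stem-loop, rose slightly from 11.1 ± 0.896 to 14.6 ± 1.31 CPM (log2 fold change 0.39 ± 0.11, FDR = 0.0113), a call that was lost when no normalization factors were used (FDR = 0.114). Cstf2, a cleavage stimulation factor that acts in both kinds of 3′ end formation, rose from 8.64 ± 1.08 to 13.9 ± 1.31 CPM (log2 fold change 0.69 ± 0.12, FDR = 7.68e-04).

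Lsm10, a ring protein particular to the U7 small nuclear ribonucleoprotein that cuts histone pre-mRNA, fell from 6.68 ± 0.752 to 2.83 ± 0.809 CPM (log2 fold change -1.24 ± 0.19, FDR = 2.86e-04). Its partner Lsm11 was not called (1.86 ± 0.539 and 1.32 ± 0.242 CPM, FDR = 0.109). Npat, the activator of histone gene transcription, measured 5.49 ± 0.533 and 5.42 ± 1.21 CPM (log2 fold change -0.01 ± 0.17, FDR = 0.951).

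Of 29 tested S phase genes, 5 were higher (17.2%, against 25.4% of all tested genes), 6 were lower (20.7%, against 22.0%) and 18 were not called, the median log2 fold change being -0.21, and the list summed to 167 to 240 CPM in saline and 148 to 182 CPM in CD95-Ab mice. Among the higher genes were Mcm4, a subunit of the replicative helicase (2.95 ± 0.422 and 6.26 ± 1.56 CPM, log2 fold change 1.09 ± 0.20, FDR = 8.62e-04), and Pcna, the sliding clamp of DNA polymerase (21.1 ± 2.26 and 28.6 ± 0.799 CPM, log2 fold change 0.44 ± 0.10, FDR = 0.00328). Among the lower was Tk1, a thymidine kinase (22.2 ± 5.54 and 6.52 ± 1.61 CPM, log2 fold change -1.77 ± 0.21, FDR = 4.36e-05). Mki67, a marker of dividing cells, was not called (7.66 ± 3.62 and 9.22 ± 4.49 CPM, FDR = 0.612).

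Of 20 tested histone chaperone genes, 4 were higher and 3 were lower, both smaller shares than over all tested genes, and the median log2 fold change was -0.0045. Daxx, which deposits H3.3, rose from 9.90 ± 1.54 to 21.8 ± 7.08 CPM (log2 fold change 1.14 ± 0.20, FDR = 6.82e-04), and Anp32e, which removes H2A.Z, rose from 13.2 ± 2.53 to 25.3 ± 4.28 CPM (log2 fold change 0.94 ± 0.16, FDR = 6.17e-04). Asf1a, a chaperone of H3 and H4, fell from 5.65 ± 0.735 to 3.95 ± 0.759 CPM (log2 fold change -0.51 ± 0.16, FDR = 0.0223).

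RNAs of other kinds that are made without a poly(A) tail were also examined, and most of those tested were higher in the same mice. Whether the histone counts came from tailless or polyadenylated mRNA was not measured. Rn7sk, the 7SK small nuclear RNA, measured 0.204 to 0.808 CPM in saline mice and 355, 694, 801, 1300 and 560 CPM in CD95-Ab mice 1 to 5 (log2 fold change 10.96 ± 0.53, FDR = 1.86e-07). Rpph1, the RNA of ribonuclease P, measured 0.0235 to 0.0889 CPM in saline mice and 1.64, 4.81, 3.62, 2.99 and 1.55 CPM in CD95-Ab mice. Its log2 fold change was 5.70 ± 0.47 (FDR = 3.29e-06). Rpph1 reached 10 counts in no saline mouse and passed the filter through the CD95-Ab mice only, so that its call was fixed by it. The annotated small nuclear, nucleolar and Cajal body RNA genes summed to 2.12 to 4.67 CPM in saline mice and to 19.3, 71.1, 70.8, 70.0 and 39.1 CPM in CD95-Ab mice. Of 16 tested genes of such RNAs, 14 were higher (87.5%, against 25.4% of all tested genes). Of the 16, 11 had passed the filter through the CD95-Ab mice only, and 100% of all tested genes of that kind were called higher.

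Among the CD95-Ab mice, mouse 1 had the lowest and mouse 4 the highest H4 sum, Rn7sk level and lymphocyte marker sum. The same held for the uncalled genes Hist1h2bc and Hist2h2aa2 and for the sum of the whole family, so this order was not particular to H4. H3f3b and the neutrophil and erythroid marker sums were lowest in mouse 1 and highest in mouse 3. Rpph1 was lowest in mouse 5 and highest in mouse 2, and the small RNA sum was lowest in mouse 1 and highest in mouse 2. Mitochondrial and nuclear RNAs moved unevenly: the rRNA gene mt-Rnr1 (log2 fold change 1.495 ± 0.38, FDR = 0.00649) and the nuclear long noncoding RNA Neat1 (1.17 ± 0.23, FDR = 0.00149) were higher, while Malat1 (0.02 ± 0.25) and mt-Rnr2 (0.45 ± 0.38) were not called. The lymphocyte markers, of a cell type that can divide, summed to 1.61 to 6.93 CPM in saline mice and 6.61 to 19.1 CPM in CD95-Ab mice, and the erythroid markers to 138 to 327 and 1064 to 33996 CPM. The part of the tailless RNAs, the quality of the RNA and these cell types in the levels of the H4 genes and Hist1h1e was not tested.

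**Figure D4:**
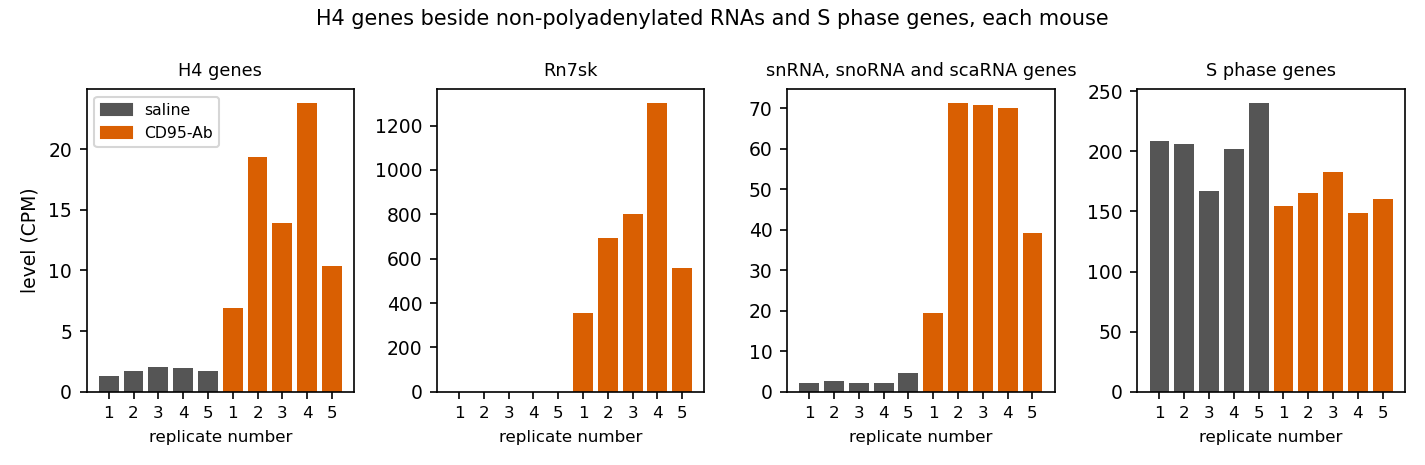
Level (CPM, axes from 0 with different scales) in each saline (grey) and CD95-Ab (orange) mouse of the 13 H4 genes summed, of Rn7sk, of the annotated small nuclear, nucleolar and Cajal body RNA genes summed, and of the S phase genes summed. The first 3 are higher in every CD95-Ab mouse than in any saline mouse, and mouse 1 is the lowest CD95-Ab mouse in each, while the S phase sum is 148 to 182 CPM in CD95-Ab mice and 167 to 240 CPM in saline mice.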

How the data were processed

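Libraries from 10 livers were sequenced as paired 100 bp reads. The authors counted reads with RSEM 1.2.19, and each deposited file holds 1 mouse. Its expected counts per gene are not normalized and are held as whole numbers, and its FPKM values, also deposited, were scaled by RSEM to transcript length and library size. The study's methods name a human annotation, Gencode release 19, but the identifiers are those of mouse genes; the mouse annotation, genome build and strand setting are not given in the sources used here. RSEM shares reads between similar genes, so counts of near-identical histone copies are estimates.

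Counts were rounded, filtered (filterByExpr, minimum count 10), scaled by TMM factors and tested with edgeR 4.0.16 (R 4.3.3) for 13719 genes, and FDR is the Benjamini-Hochberg adjusted p. CPM used TMM-adjusted totals. Intervals (95%) and limits of 3 counts cover counting error only. On simulated counts the test recovered 88.5% of 200 genes changed by 1.5 on the log2 scale, with 4.32% false calls. Identifiers were matched to GENCODE M21 (37606 of 38922). Members and lists were chosen with earlier results of these data known. Members passing the filter were named, others with at least 10 counts in a mouse. From each other list a fixed set of key genes and at most 6 called genes of at least 1 CPM with large changes were eligible. Hist1h4m, Malat1, mt-Rnr2 and the 8 unmatched members fall outside this rule and were named after values were seen. Alternatives were DESeq2 1.42.0, edgeR's likelihood ratio test, RLE or no factors, other filters and thresholds, a replicate block, summed copies and leaving out each mouse.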

Additional observations from a re-analysis of the deposited data

Results flagged for a closer look

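Single mice stood far from the other 4 of their group, by Dixon's test at the 95% level, in 6 of 48 groups of 5 mice examined (chance gives about 1 in 20). Hist1h1d measured 1.42 CPM in saline mouse 4 against 0.0296 to 0.315 CPM in the other saline mice. Hist2h2aa1 measured 5.11 CPM in saline mouse 5, against at most 1.27 CPM in the others, and 4.64 CPM in CD95-Ab mouse 4, against at most 0.764 CPM in the others. Of the 100-base windows of Hist2h2aa1, 88.1% recur in other histone transcripts. The remaining 3 rest on few counts in saline mice: Hist1h4c measured 0.119 CPM in saline mouse 2, Hist1h4d 0.111 CPM in saline mouse 5, and Hist1h4n 0.0705 CPM in saline mouse 1 with 0 in the other saline mice. Each of these values was still below every CD95-Ab mouse.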

How the results depend on the processing

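The 3 H4 genes with 10 counts in a saline mouse were called higher under each alternative run at FDR 0.05, as were the 5 whose calls the filter fixed, while 2 of the former, Hist1h4i and Hist1h4h, have log2 fold changes under 2. The count of higher histone genes rose from 9 to 19 with DESeq2 (40 members with an FDR) and to 20 with no filter on low counts (55 members tested); leaving out 1 mouse gave 9 to 12. Lower histone genes, 2 in the report, were 3 with DESeq2 (Hist1h1c added), 3 with no filter (Hist2h3c1 added), 1 at FDR 0.01, 0 at an absolute log2 fold change of 2 or more and 1 to 2 without 1 mouse. Higher variant histone genes were 2 with DESeq2 and 1 to 2 without 1 mouse. With no normalization factors the higher genes were 3 for S phase, 1 for histone mRNA processing and 2 for chaperones; at FDR 0.01 they were 3 for S phase and 1 for processing, and at an absolute log2 fold change of 2 they were 0 for each of these 3 lists. Of the 2913 genes of RNAs without poly(A) tails, 2738 had no count in any mouse. Higher ones were 58 with DESeq2, where 17.5% of 23118 genes were higher, and 67 with no filter, where 16.4% were. The cause of these differences was not tested.

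Leaving out 1 mouse changed the sign, among the genes named, of uncalled ones only: Hist1h2bc ranged from -0.21 to 0.15 in log2 fold change, Hist2h2aa2 from -0.22 to 0.33, Hist2h2aa1 from -2.89 to 0.99, Hist2h3c2 from -0.43 to 0.11, Npat from -0.10 to 0.090 and Mki67 from -0.074 to 0.50. The summed family level was 147 ± 39.0 CPM in saline and 137 ± 30.5 CPM in CD95-Ab mice over totals as deposited, and 187 ± 39.0 against 199 ± 54.5 in FPKM.

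Replicate numbers are shared by the groups, but mice of the same number did not deviate together (correlations of -0.28 to 0.27 over 5 pairs, 4 of 10 mice correlating best with their own number). With the replicate block, 9 histone genes were higher and 1 was lower, Hist3h2a being no longer called (FDR = 0.074). Summing near-identical copies was added after the data were seen. Levels of members with 3 counts or fewer over the saline mice, such as Hist1h4n, are not resolved from 0 at this depth.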
